A study of Mus musculus with 9 samples.

Results

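The genes described here are the kinesins and the centromere proteins of the mouse genome, taken as every gene of the table whose symbol is Kif followed by a number and at most 1 letter from a to c, or Cenp followed by a letter. These symbols gave 58 of 26214 genes. They comprised 11 kinesins of mitosis, 15 kinesins of transport, 12 ciliary and other kinesins and 20 centromere proteins. RNA was sequenced from cells of male C57Bl/6 J mice aged 8 to 12 weeks, collected 1 day after an injection into the quadriceps muscle. Adipose stromal cells (ASCs) of the subcutaneous adipose tissue (3 libraries) and fibroadipogenic progenitors (FAPs) of the quadriceps (2 libraries) came from animals given NaCl. Injured FAPs (3 libraries) and CD31+CD45+ cells (1 library) came from quadriceps given 50% glycerol, which damages the muscle fibres. ASCs and FAPs were sorted as cells that carry Sca-1 and lack CD31 and CD45. No transgene or mutation was part of any group.

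Kinesins are motors that walk along microtubules on the energy of ATP. The mitotic members build the spindle, move chromosomes and divide the cell, whereas the transport members carry vesicles, organelles and proteins through cells that need not divide. Centromere proteins mark the site on each chromosome where the kinetochore forms and join it to the spindle. FAPs are mesenchymal cells of muscle that rest in the intact tissue and multiply after damage, and ASCs are their counterparts in fat.

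The libraries of ASCs and FAPs were described as triplicates made from pooled cells of 3 animals, and may thus share a pool, and only 2 FAP libraries were analysed here. Values are reads per gene divided by a size factor of the library, as deposited. Reads on genes numbered 27481573, 27349184 and 27402102 in ASCs, 24052508 and 24164447 in FAPs, 26968235, 26698572 and 27028114 in injured FAPs and 13091077 in CD31+CD45+ cells. At these depths 3 reads were worth a value of 2.29 to 4.71, so that values below this level were not told from background. Groups were compared by limma on log2(value + 1) across 13601 genes with a mean of at least 10, and calls needed an adjusted p below 0.05 together with a log2 fold change of more than 0.58 in either direction. This scale understates the change of genes with low values. Since the cells were pooled, the p-values may measure only technical spread between libraries. Levels here are per amount of RNA in sorted cells, in which fewer cells of a type and less RNA per cell cannot be told apart.

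The cell types on the labels were checked against their markers. Pdgfra, the receptor that marks ASCs and FAPs, stood at 10837, 15083 and 13043 in ASCs, 17754 and 17756 in FAPs, 23649, 25268 and 23236 in injured FAPs and 119 in CD31+CD45+ cells. It was thus high in all 8 libraries of stromal cells and low in the CD31+CD45+ library. Unlike Pdgfra, the sum of the 8 ASC and FAP markers was lower in injured FAPs than in FAPs. It was 690305, 749126 and 669560 in injured FAPs, 1.54e+06 and 1.67e+06 in FAPs and 64160 in CD31+CD45+ cells. The 14 endothelial markers summed to 36117, 34858 and 31722 in ASCs, 17351 and 12566 in FAPs, 9969, 9086 and 9113 in injured FAPs and 420207 in CD31+CD45+ cells. Ly6c1 was the most abundant of them in each ASC, FAP and injured FAP library, and Cdh5 in the CD31+CD45+ library. Ly6c1 alone made up 28737 of the sum in ASC replicate 1. The medians over the 14 markers were 56.6, 39.6 and 30.8 in ASCs, 241.5 and 169.8 in FAPs and 88.3, 107.3 and 83.1 in injured FAPs. Among stromal cells they were thus lowest in ASCs, where the sums were highest. Emcn, Vwf, Cldn5 and Plvap were listed at 0 in both FAP libraries, and Pecam1, which encodes CD31, was at 195 and 0. The 15 leukocyte markers summed to 497, 416 and 389 in ASCs, 265 and 497 in FAPs, 770.5, 3601 and 675 in injured FAPs and 35458 in CD31+CD45+ cells.

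Some libraries stood apart from the others. In both FAP libraries 12 of the 15 leukocyte markers were listed at 0, among them Ptprc, which encodes CD45, and Cd68 was the most abundant. Among genes with a mean of at least 100 over the other 6 libraries, 15 were at 0 in both FAP libraries, of which 4 were leukocyte markers, 1 an endothelial marker and 0 kinesins or centromere proteins. By the same count 1 gene was at 0 throughout the ASCs and 2 throughout the injured FAPs. Injured FAP replicate 2 held a higher leukocyte marker sum than the other injured FAP libraries, with Lyz2 as its most abundant marker at 724.6. The mitotic kinesins summed to 7486, 8169.9 and 8117 in the 3 injured FAP libraries, highest in replicate 2. The part of leukocytes in these sums was not tested. The FAP libraries differed from each other: FAP replicate 2 lay above FAP replicate 1 for 10 of 11 mitotic kinesins with a median ratio of 2.36, against 49.3% of all tested genes with a median ratio of 0.998. It lay above in 9 of 10 ciliary and other kinesins with a median ratio of 1.51, in 15 of 19 centromere proteins with 1.46 and in 13 of 16 outer kinetochore genes with 1.81. For transport kinesins it lay above in 8 of 15, with a median ratio of 1.01, and for endothelial markers in 0 of 10, with 0.628. The ASC libraries differed too, with mitotic kinesins summing to 273, 359 and 491 in replicates 1, 2 and 3.

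Injured FAPs were compared with FAPs to see which motors changed in muscle stromal cells 1 day after damage. All 11 mitotic kinesins were higher in injured FAPs, whereas 2 of 15 transport kinesins were higher and 4 lower. In this comparison 52.6% of tested genes were called, 24.9% as higher and 27.7% as lower. The median log2 fold change was 4.88 over the mitotic kinesins and −0.04 over the transport kinesins, beside −0.05 over all tested genes. Of the centromere proteins 15 of 20 were higher and 0 lower, with a median of 3.82. Of the 12 ciliary and other kinesins 8 passed the filter, and 3 of these were higher and 4 lower, with a median of −0.31. In total 54 of the 58 genes passed the filter.

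**Figure D1:**
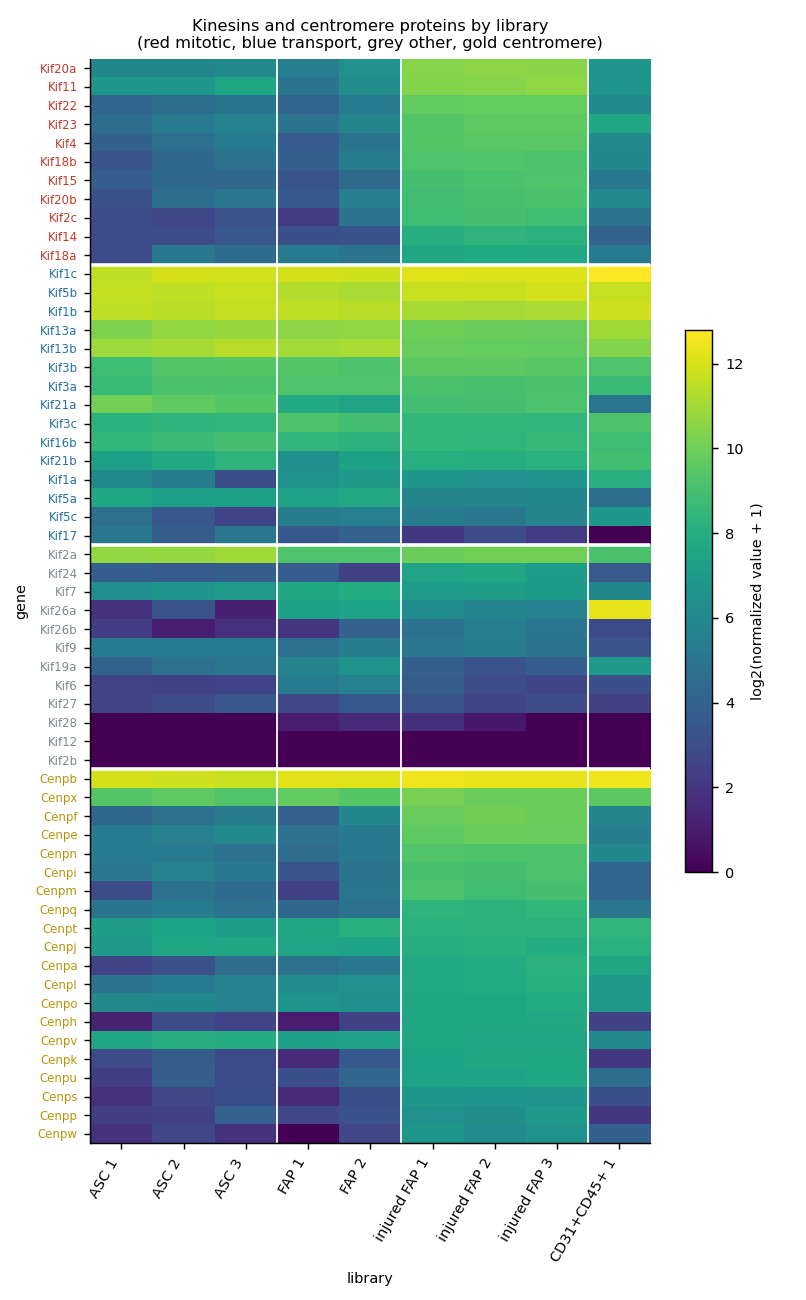
Heat map of log2(normalized value + 1) of the 58 genes (vertical axis, grouped by kind and ordered within each kind) in the 9 libraries (horizontal axis, grouped by vertical lines). The 11 mitotic kinesins in the top block are bright in the 3 injured FAP libraries, with sums of 7486, 8169.9 and 8117, and dark in the FAP libraries, with sums of 211 and 459.

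The motors that form the spindle were low in FAPs and high in each injured FAP library. Kif11, the kinesin that slides antiparallel microtubules to push the spindle poles apart, had values of 29.5 and 79.0 in FAPs and 1366, 1427 and 1571 in injured FAPs. Its ASC values of 109, 108 and 187 lay above both FAP libraries and far below the injured FAP libraries. Limma gave Kif11 a log2 fold change of 4.88 ± 0.36 (adjusted p = 2.10e-06) in injured FAPs against FAPs. This estimate ranged from 4.18 to 5.58 over the alternative settings. Kif15, which helps Kif11 to keep the spindle bipolar, had 8.56 and 20.7 in FAPs, 524, 550.2 and 622 in injured FAPs and 13.2, 19.3 and 17.6 in ASCs. ASCs and FAPs overlapped for Kif15, and the injured FAPs lay above both. Its log2 fold change against FAPs was 5.29 ± 0.33 (adjusted p = 9.17e-07) by limma.

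Kinesins that act on chromosomes and on microtubule ends followed. Kif2c, which depolymerizes microtubules at centromeres, had 3.804 and 28.2 in FAPs, 443, 509.9 and 446 in injured FAPs, 6.59, 5.66 and 8.79 in ASCs and 28.2 in CD31+CD45+ cells. The FAP libraries differed 7.42-fold from each other, but both lay far below injured FAPs. With a log2 fold change of 5.30 ± 0.59 (adjusted p = 2.81e-05) by limma it had the largest rise of the mitotic kinesins, closely followed by Kif15. The estimate for Kif2c ranged from 3.997 to 6.60 over the alternative settings, which included leaving out each FAP library. That of Kif15 ranged from 4.70 to 5.89, so that the first rank of Kif2c is not well fixed. Kif22, which binds DNA and pushes chromosome arms away from the poles, had 17.1 and 35.8 in FAPs, 843, 879.6 and 869 in injured FAPs and 17.1, 23.8 and 30.1 in ASCs. Kif4, which condenses chromosomes and later shapes the central spindle, had 12.4 and 29.2 in FAPs, 694, 734 and 724 in injured FAPs and 14.5, 24.9 and 37.7 in ASCs. For Kif22 and Kif4 the injured FAPs lay above every other library, and limma gave log2 fold changes of 5.07 ± 0.31 (adjusted p = 8.18e-07) and 5.16 ± 0.40 (adjusted p = 2.83e-06) against FAPs.

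The pair of kinesin-8 genes, whose motors shorten microtubule ends, differed in size of change. Kif18b, which acts on astral microtubules, had 14.3 and 42.3 in FAPs, 610.4, 646 and 582 in injured FAPs and 9.22, 18.1 and 26.4 in ASCs. Kif18a, which damps the movement of chromosomes at the metaphase plate, had 36.1 and 29.2 in FAPs, 189, 218 and 207 in injured FAPs and 6.59, 35.1 and 21.3 in ASCs. Neither gene overlapped between FAPs and injured FAPs. By limma the log2 fold change was 4.58 ± 0.46 (adjusted p = 1.46e-05) for Kif18b and 2.62 ± 0.52 (adjusted p = 0.00130) for Kif18a, the smallest of the 11. The difference between these changes was not tested. The estimate for Kif18b ranged from 3.82 to 5.33 over the settings.

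Kinesins of the central spindle and of cytokinesis rose as well. Kif20a, which brings the chromosomal passenger complex to the central spindle, had 42.8 and 86.6 in FAPs, 1426, 1539.9 and 1444 in injured FAPs and 58.0, 57.8 and 69.0 in ASCs. Its paralogue Kif20b, a motor of late cytokinesis, had 10.5 and 43.3 in FAPs, 473, 543 and 561 in injured FAPs and 7.90, 23.8 and 32.6 in ASCs. For both genes FAPs and ASCs overlapped, and injured FAPs lay above. Limma gave log2 fold changes of 4.57 ± 0.25 (adjusted p = 4.76e-07) for Kif20a and 4.54 ± 0.60 (adjusted p = 9.01e-05) for Kif20b, and the estimate for Kif20b ranged from 3.57 to 5.52 over the settings. Kif23, the motor of centralspindlin, had 28.5 and 56.4 in FAPs, 670.1, 798 and 798 in injured FAPs and 23.7, 36.2 and 50.2 in ASCs. Kif14, which acts with citron kinase in cytokinesis, had 7.61 and 8.47 in FAPs, 246, 324 and 294 in injured FAPs and 6.59, 6.80 and 10.04 in ASCs. These genes did not overlap between FAPs and injured FAPs, with log2 fold changes of 4.19 ± 0.34 (adjusted p = 3.31e-06) and 4.99 ± 0.30 (adjusted p = 7.17e-07) by limma. All 11 mitotic kinesins were also called without FAP replicate 1, without FAP replicate 2 and without injured FAP replicate 2, the library with the higher leukocyte markers.

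Promoter sequences were set beside these values, because the mitotic members rose together and the transport members did not. Windows from 250 bases before to 50 bases after the start of transcription were taken from RefSeq on GRCm38.p6, and 51 of the 58 genes had at least 1. They were searched on both strands for the letters TTTGAA and TTCGAA (the cell cycle genes homology region, CHR), for CCAAT, and for the E2F letters GGCGGGAA, GCGCCAAA and TTTCCCGC. TTCGAA reads alike on both strands, and matches to GGCGGGAA and to the reverse complement of TTTCCCGC can overlap. As background, CHR and CCAAT elements are known from promoters of genes of the G2 phase and mitosis, and E2F elements from those of the start of S phase. The following 150 bases upstream of the start, in which no annotated exon lies, are shown 5′ to 3′ on the strand of the gene for 3 mitotic kinesins, 2 centromere proteins and 2 transport kinesins, chosen after the search. Capitals mark matches on either strand. Kif11 lies at chr19:37376232-37376381 on the plus strand, Kif18b at chr11:102925125-102925274 and Kif23 at chr9:61946800-61946949 on the minus strand. Cenpf, which rose, lies at chr1:189688087-189688236 and Cenpb, which was not called, at chr2:131180068-131180217, both on the minus strand. Kif1c, the most abundant kinesin per kb in FAPs, lies at chr11:70700398-70700547 on the plus strand and Kif21a, a transport kinesin that rose, at chr15:91049952-91050101 on the minus strand.
Kif11: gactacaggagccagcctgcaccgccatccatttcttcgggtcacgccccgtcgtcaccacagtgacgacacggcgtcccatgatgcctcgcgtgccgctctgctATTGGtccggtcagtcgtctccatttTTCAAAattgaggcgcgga
Kif18b: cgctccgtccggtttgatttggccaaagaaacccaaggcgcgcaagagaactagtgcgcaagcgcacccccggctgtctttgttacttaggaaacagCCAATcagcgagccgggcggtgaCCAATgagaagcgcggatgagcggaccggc
Kif23: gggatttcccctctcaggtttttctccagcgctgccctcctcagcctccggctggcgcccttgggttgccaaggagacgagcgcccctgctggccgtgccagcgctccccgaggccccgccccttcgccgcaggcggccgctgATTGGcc
Cenpf: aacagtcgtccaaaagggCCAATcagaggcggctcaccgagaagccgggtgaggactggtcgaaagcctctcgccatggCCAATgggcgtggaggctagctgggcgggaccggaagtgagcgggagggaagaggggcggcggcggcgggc
Cenpb: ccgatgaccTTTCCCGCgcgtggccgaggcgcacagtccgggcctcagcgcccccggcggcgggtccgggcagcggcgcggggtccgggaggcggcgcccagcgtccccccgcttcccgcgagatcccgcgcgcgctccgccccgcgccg
Kif1c: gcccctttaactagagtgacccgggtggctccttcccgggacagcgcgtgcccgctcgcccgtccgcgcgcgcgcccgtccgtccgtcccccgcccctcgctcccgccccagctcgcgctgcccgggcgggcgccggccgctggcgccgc
Kif21a: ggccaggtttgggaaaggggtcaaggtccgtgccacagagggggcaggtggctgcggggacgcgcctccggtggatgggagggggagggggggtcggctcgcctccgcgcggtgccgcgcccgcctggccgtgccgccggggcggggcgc

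In Kif11 a CCAAT match on the reverse strand at −45 to −41 was followed by a CHR match at −19 to −14, counted from the base before the start as −1. Kif18b held 2 CCAAT matches in these bases and a CHR match just after the start, at 4 to 9. Kif23 and Cenpf likewise held their CHR match at 3 to 8, outside the bases shown. In Cenpb the only match was to E2F letters, and the windows of Kif1c and Kif21a held no match. CHR letters were found in 9 of 10 mitotic kinesins with a window, 1 of 11 transport kinesins, 3 of 10 other kinesins and 6 of 20 centromere proteins, against 16.2% of tested genes with a window. CHR and CCAAT letters in the same window were found in 6 of 10 mitotic kinesins, 0 of 11 transport kinesins, 3 of 10 other kinesins and 6 of 20 centromere proteins, against 6.74% of tested genes. CCAAT letters gave 6 of 10, 3 of 11, 5 of 10 and 13 of 20 against 42.8%, and E2F letters 2 of 10, 0 of 11, 1 of 10 and 7 of 20 against 6.95%. Of the 12 CHR matches in mitotic kinesins 8 lay within 50 bases of the start of their window's transcript. The same held for 4 of 6 matches in centromere proteins, 2 of 5 in other kinesins and 1 of 1 in transport kinesins. This share was not counted over all tested genes. Not every window lies at the start of its gene: those of Kif2c, Kif14, Kif17, Kif27, Cenpj and Cenpt and the matching window of Kif1a lie 1270 to 19471 bases from the 5′ end of the gene in GENCODE. With windows as far from the gene's start as these left out, a choice made after the windows were seen, CHR letters were found in 7 of 8 mitotic kinesins, 0 of 10 transport kinesins, 2 of 9 other kinesins and 6 of 18 centromere proteins, against 14.1% of 9664 tested genes. The windows of transport kinesins had a median GC content of 69.3%, against 60.2% in mitotic kinesins and 60.8% in tested genes, and letters rich in A and T are rarer in sequence rich in G and C. A match of letters is a description of the sequence and not of a bound site. No window was given for Kif20a, Kif13b, Kif21b, Kif5a, Kif5b, Kif19a and Kif28.

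Of the transport kinesins 9 of 15 were not called between FAPs and injured FAPs, the most abundant among them. Kif1c, a carrier of vesicles and integrins, had 4026 and 3714 in FAPs, 4632, 4427 and 4396 in injured FAPs, 3043, 4023 and 3806 in ASCs and 7097 in CD31+CD45+ cells. Its paralogue Kif1b, which moves mitochondria and synaptic vesicle precursors, had 3032 and 2711 in FAPs, 2252, 2119 and 2303 in injured FAPs and 3064, 2802 and 3179.9 in ASCs. Kif1a, known mainly from neurons, had 89.4 and 116 in FAPs, 111, 86.8 and 99.2 in injured FAPs and 65.9, 41.9 and 7.53 in ASCs. Injured FAPs lay just above FAPs for Kif1c, just below them for Kif1b and overlapped them for Kif1a. None of the 3 was called, with log2 fold changes of 0.21, −0.37 and −0.04.

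The conventional kinesin heavy chains parted. Kif5b, the form found in most tissues, had 2555 and 2291 in FAPs, 3355, 3476 and 3846 in injured FAPs and 3091, 3065 and 3378 in ASCs. Although it did not overlap between FAPs and injured FAPs, its log2 fold change of 0.55 ± 0.10 (adjusted p = 8.26e-04) by limma was under the threshold of 0.58. It passed that threshold without FAP replicate 1, at 0.63, without injured FAP replicate 1, at 0.60, and with edgeR, at 0.60. Kif5a, known mainly from neurons, had 166 and 212 in FAPs, 55.7, 55.8 and 59.5 in injured FAPs and 187, 148 and 159 in ASCs. Injured FAPs lay below every library of the other groups compared, and Kif5a showed the largest fall of the transport kinesins, with a log2 fold change of −1.70 ± 0.19 (adjusted p = 2.71e-05) by limma. Kif5c, another neuronal form, had 39.9 and 47.0 in FAPs, 40.8, 33.3 and 54.9 in injured FAPs and 25.0, 10.2 and 5.02 in ASCs. FAPs and injured FAPs overlapped for Kif5c, and ASCs lay below both.

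The kinesin-3 pair that carries endosomes and receptors to the cell surface was lower in injured FAPs. Kif13a had 1514 and 1594 in FAPs, 985, 974 and 900.0 in injured FAPs and 1278, 1668 and 1819 in ASCs. Kif13b had 2082 and 2288 in FAPs, 912, 884 and 849.7 in injured FAPs and 1963, 2232 and 2742 in ASCs. FAPs and ASCs overlapped for both genes and injured FAPs lay below them. Limma gave log2 fold changes of −0.71 ± 0.14 (adjusted p = 0.00142) for Kif13a and −1.31 ± 0.13 (adjusted p = 1.62e-05) for Kif13b against FAPs. Kif16b, a carrier of early endosomes, had 343 and 295 in FAPs and 348, 325 and 376 in injured FAPs, which overlapped.

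Of the heterotrimeric kinesin-2 motors, which drive transport into cilia, only Kif3c was called against FAPs. Kif3a had 613 and 622 in FAPs and 557, 533 and 559 in injured FAPs. Kif3b had 668 and 601 in FAPs and 750.1, 749 and 712 in injured FAPs. Injured FAPs lay just below FAPs for Kif3a and just above them for Kif3b, with log2 fold changes of −0.17 and 0.22, and neither was called. Kif3c had 597 and 508 in FAPs, 356, 349.5 and 346 in injured FAPs, 283, 321 and 346 in ASCs and 599.5 in CD31+CD45+ cells. FAPs lay above ASCs and injured FAPs, with a log2 fold change of −0.65 ± 0.13 (adjusted p = 0.00167) in injured FAPs by limma, which was under the threshold without FAP replicate 1, at −0.53. Kif17, the homodimeric motor of this family, was low throughout, at 10.5 and 15.1 in FAPs, 3.14, 6.97 and 3.81 in injured FAPs and 34.3, 12.5 and 32.6 in ASCs. Its log2 fold change against FAPs was −1.32 ± 0.54 (adjusted p = 0.0523) by limma and was not called. It was called when ASC replicate 1, ASC replicate 2 or injured FAP replicate 2 was left out, with adjusted p of 0.0478, 0.0258 and 0.0385.

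The kinesin-4 relatives Kif21a and Kif21b, which restrain the growth of microtubules, were the transport kinesins that rose. Kif21a had 223 and 177 in FAPs, 508, 522 and 575 in injured FAPs, 1066, 809 and 690.5 in ASCs and 31.4 in CD31+CD45+ cells. The groups did not overlap, with ASCs highest and FAPs lowest of the 3 stromal groups. By limma the log2 fold change was 1.43 ± 0.18 (adjusted p = 6.97e-05) in injured FAPs and 2.08 ± 0.18 (adjusted p = 6.57e-06) in ASCs, each against FAPs. Kif21b had 85.6 and 159 in FAPs, 271, 253 and 285 in injured FAPs and 153, 215 and 324 in ASCs. Injured FAPs lay above FAPs, and ASCs overlapped both. Its log2 fold change of 1.199 ± 0.31 (adjusted p = 0.00682) in injured FAPs by limma was not called without FAP replicate 1, where it was 0.76 with an adjusted p of 0.0906.

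**Figure D2:**
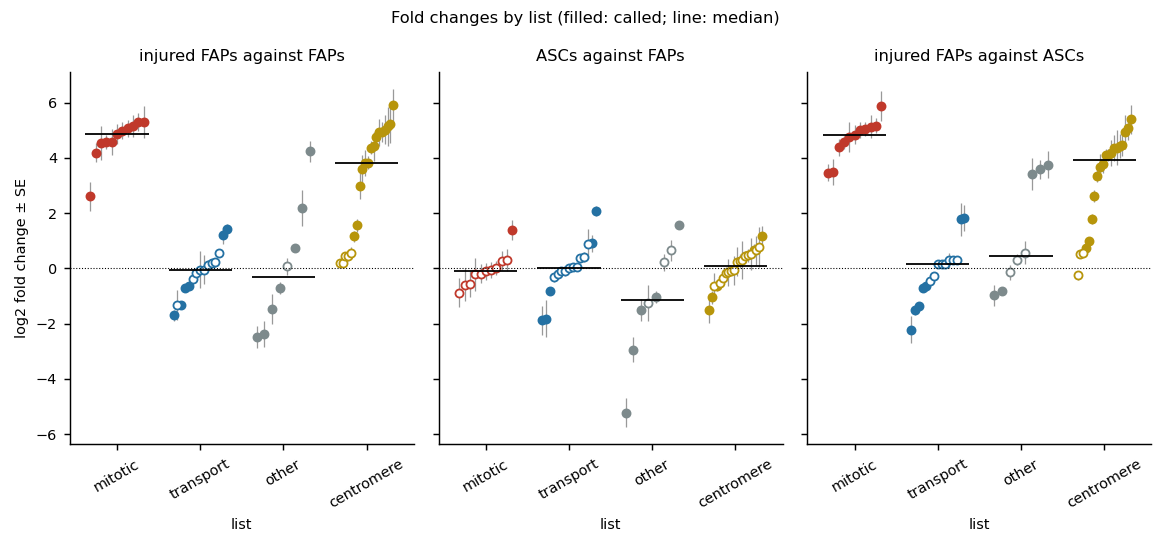
Log2 fold change with its SE (vertical axis) of each tested gene in the 4 lists (horizontal axis) for the 3 comparisons, with filled points for called genes, open points for others and a line at the list's median. In injured FAPs against FAPs the medians were 4.88 for mitotic kinesins and 3.82 for centromere proteins, and those of transport and other kinesins were −0.04 and −0.31.

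Ciliary and other kinesins moved in both directions. Kif24, which depolymerizes microtubules at centrioles and restrains cilia, had 12.4 and 4.70 in FAPs, 175, 188 and 135 in injured FAPs and 13.2, 11.3 and 13.8 in ASCs. Only the injured FAPs were high, with a log2 fold change of 4.24 ± 0.38 (adjusted p = 6.35e-06) by limma, the largest rise of this list. Kif2a, a relative of Kif2c that acts at spindle poles and in neurites, had 612 and 621 in FAPs, 949, 1056 and 1060.2 in injured FAPs and 1709, 1737 and 2016 in ASCs. The groups did not overlap, and the log2 fold change was 0.73 ± 0.11 (adjusted p = 2.18e-04) in injured FAPs by limma. Kif19a, which limits the length of cilia, had 52.3 and 92.2 in FAPs, 14.1, 8.52 and 13.0 in injured FAPs and 15.8, 26.1 and 32.6 in ASCs. The groups did not overlap, and it had the largest fall of this list, with a log2 fold change of −2.48 ± 0.41 (adjusted p = 4.23e-04) by limma. Kif6, a motor of motile cilia, had 39.0 and 50.8 in FAPs, 12.6, 6.97 and 5.34 in injured FAPs and 5.27, 4.53 and 5.02 in ASCs. FAPs lay above both other groups, and the log2 fold change in injured FAPs was −2.37 ± 0.46 (adjusted p = 0.00112) by limma.

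Kif7, which works in Hedgehog signalling at the tip of the cilium, had 195 and 245 in FAPs, 135, 138 and 127 in injured FAPs and 85.6, 105 and 133 in ASCs. FAPs were again highest, with a log2 fold change of −0.71 ± 0.21 (adjusted p = 0.0124) in injured FAPs by limma, which was not called without FAP replicate 2, at −0.55 with an adjusted p of 0.116. Kif9, a ciliary motor, had 24.7 and 42.3 in FAPs and 32.2, 42.6 and 29.7 in injured FAPs, which overlapped. The atypical kinesins Kif26a and Kif26b went in opposite directions. Kif26a had 153 and 169 in FAPs, 73.0, 54.2 and 48.8 in injured FAPs, 2.63, 9.06 and 1.26 in ASCs and 5099 in CD31+CD45+ cells. It was low in ASCs, intermediate in injured FAPs and by far highest in the CD31+CD45+ library. Its fall against FAPs had a log2 fold change of −1.46 ± 0.54 (adjusted p = 0.0338) by limma. The call was lost without FAP replicate 1 and without FAP replicate 2, although the estimate stayed at −1.53 and −1.39. It was also lost without injured FAP replicate 2, at −1.42, and without injured FAP replicate 3, at −1.34, with adjusted p of 0.0775 and 0.0962 by limma. Without a filter, with quantile normalization and with the replicate number as a block the call was lost too, at −1.46, −1.22 and −1.16. Kif26b had 2.85 and 15.1 in FAPs, 28.2, 45.7 and 32.03 in injured FAPs and 3.95, 1.13 and 2.51 in ASCs. Injured FAPs lay above the other groups. The log2 fold change of Kif26b, 2.18 ± 0.65 (adjusted p = 0.0133) by limma, was not called without FAP replicate 1, at 1.15 with an adjusted p of 0.149. The other 4 genes of this list did not pass the filter: Kif12 and Kif2b were at 0 in all 9 libraries, Kif27 lay between 4.71 and 10.3, and Kif28 reached at most 2.35.

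Of the 20 centromere proteins 15 rose in injured FAPs against FAPs. Cenpa, the histone H3 variant that marks the centromere, had 26.6 and 33.9 in FAPs, 214, 231 and 294 in injured FAPs, 5.27, 7.93 and 22.6 in ASCs and 184 in CD31+CD45+ cells. Injured FAPs were highest and ASCs lowest, and the log2 fold change against FAPs was 2.98 ± 0.47 (adjusted p = 3.15e-04) by limma. Cenpe, a kinesin of the kinetochore by its protein though not by its symbol, had 27.6 and 34.8 in FAPs, 777, 925 and 908 in injured FAPs and 39.5, 46.4 and 65.3 in ASCs. Cenpf, which links kinetochores to dynein, had 15.2 and 60.2 in FAPs, 901, 1037 and 941 in injured FAPs and 18.4, 27.2 and 41.4 in ASCs. The injured FAPs lay above all others for both, with log2 fold changes of 4.76 ± 0.23 (adjusted p = 2.96e-07) for Cenpe and 4.93 ± 0.48 (adjusted p = 1.15e-05) for Cenpf by limma. The estimate for Cenpf ranged from 3.97 to 5.89 over the settings. Cenpb, which binds a box in satellite DNA, had 4779 and 4584 in FAPs, 5679.9, 5061 and 5251 in injured FAPs and 3948, 3732 and 3378 in ASCs. It was high in every library, and its log2 fold change of 0.19 ± 0.10 (adjusted p = 0.129) by limma was not called. Cenpj, a protein of centrioles despite its name, had 179 and 167 in FAPs, 253, 282 and 241 in injured FAPs and 115, 180.1 and 182 in ASCs. Its log2 fold change of 0.58 ± 0.21 (adjusted p = 0.0334) by limma lay just under the threshold of 0.58, and it was called with quantile normalization, edgeR and DESeq2, at 0.68, 0.62 and 0.60.

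The 14 genes of the constitutive centromere complex that the symbols took, a complex which stays on the centromere through the cell cycle and holds the kinetochore, contained 12 that rose in injured FAPs and 0 that fell, with a median log2 fold change of 4.10. Cenph had the largest rise of all centromere proteins. It had 0.951 and 4.70 in FAPs, 200.1, 193 and 207 in injured FAPs and 1.32, 6.80 and 5.02 in ASCs, and its log2 fold change was 5.91 ± 0.59 (adjusted p = 1.28e-05) by limma. The FAP value of replicate 1 was worth 1 read, so that the size of this change is not well fixed, and it ranged from 4.29 to 6.69 over the alternative settings. Cenpi, Cenpk, Cenpm, Cenpn, Cenpp, Cenpq, Cenps, Cenpu and Cenpw rose by log2 fold changes of 3.61 to 5.24. Among them Cenpw was at 0 and Cenpk and Cenps below the worth of 3 reads in FAP replicate 1, and their estimates ranged from 3.24 to 6.51, 3.85 to 6.01 and 3.19 to 5.20 over the settings. That of Cenpm ranged from 3.997 to 6.47. The smallest rises of the complex were those of Cenpl, at 1.56, and Cenpo, at 1.16. Cenpt and Cenpx, which carry histone folds and bind DNA, were not called, with log2 fold changes of 0.46 and 0.44. Cenpt had 184 and 257 in FAPs and 287, 310.0 and 304 in injured FAPs. It was called without FAP replicate 2, at 0.70, as was Cenpx without FAP replicate 1, at 0.60. Cenpv, which works outside this complex, was not called either, with 159 and 167 in FAPs and 205, 177 and 179 in injured FAPs.

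Levels were compared between genes as values per kb of exon. Among the 38 kinesins Kif1c ranked 1 and Kif5b ranked 2 in FAPs, with means of 532 and 402 per kb, and they kept these ranks in injured FAPs, at 616 and 590.0 per kb. Kif22 moved from rank 20 in FAPs to rank 3 in injured FAPs, from 12.5 to 408 per kb. Kif20a moved from rank 16 to rank 4 and Kif11 from rank 22 to rank 5. Mitotic kinesins made up 2.33% and 4.96% of the summed kinesin level per kb in FAPs, and 45.3%, 47.6% and 46.6% in injured FAPs. In ASCs they made up 2.72%, 3.29% and 4.04%, and in CD31+CD45+ cells 5.54%. The mean share with its SD was 46.5% ± 1.13 over the 3 injured FAP libraries, 3.65% ± 1.86 over the 2 FAP libraries and 3.35% ± 0.662 over the 3 ASC libraries, so that ASCs and FAPs overlapped and injured FAPs lay far above. The transport kinesins summed to 2160 and 2070.3 per kb in FAPs and to 2128, 2092 and 2171 per kb in injured FAPs, so that the groups overlapped. The mitotic sum went from 56.5 and 121 per kb to 1975, 2145 and 2116 per kb. Of all 58 genes Cenpb had the highest level per kb in each of the 4 groups, with 958 per kb in FAPs and 1091 per kb in injured FAPs. Reads shared with overlapping genes make some levels uncertain, since the strand setting was not stated: the share of exon bases shared with another gene was 43.6% for Kif3c, 36.5% for Cenpu, 31.8% for Kif20a and 29.4% for Cenpo.

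**Figure D3:**
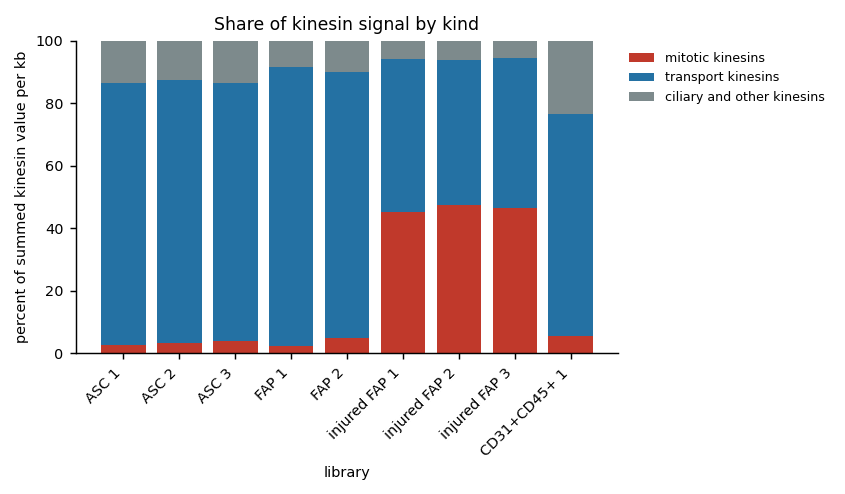
Stacked bars of the percent of the summed kinesin value per kb (vertical axis) taken by mitotic, transport and other kinesins in each of the 9 libraries (horizontal axis). The mitotic part is 45.3% to 47.6% in injured FAPs and 2.33% to 5.54% in the other libraries.

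ASCs and FAPs of animals given NaCl were compared to see how far resting stromal cells of fat and muscle differ in these genes. In this comparison 47.2% of tested genes were called, 23.4% as higher and 23.8% as lower in ASCs. This balance depends on the scaling, since 3183 genes were higher and 3233 lower as deposited, and 2582 higher and 3919 lower with a common 75th percentile. Of the mitotic kinesins 1 of 11 was called, Kif11, which was higher in ASCs with a log2 fold change of 1.41 ± 0.36 (adjusted p = 0.00666) by limma. This call was lost without FAP replicate 1, at 0.71 with an adjusted p of 0.0740. The count of called mitotic kinesins was 2 without FAP replicate 1, where Kif2c at −1.89 and Kif18b at −1.31 were called, 2 without FAP replicate 2, where Kif15 at 0.87 joined, and 2 without ASC replicate 2, where Kif18a at −1.36 joined. Their median log2 fold change was −0.10, beside 0.0049 over all tested genes. Of the centromere proteins Cenpi and Cenpe were higher and Cenpa, Cenpl and Cenpo lower, with a median of 0.09. This balance changed with the setting: it was 5 higher and 1 lower with quantile normalization and 1 and 5 without ASC replicate 2. With a common 75th percentile it was 1 higher and 4 lower. Cenpi had 34.3, 48.7 and 35.2 in ASCs and 9.51 and 29.2 in FAPs, without overlap, and a log2 fold change of 1.16 ± 0.37 (adjusted p = 0.0207) by limma. For Cenpa the log2 fold change was −1.50 ± 0.47 (adjusted p = 0.0192) by limma. The call of Cenpa was lost without FAP replicate 1, at −1.67, and without FAP replicate 2, at −1.33. That of Cenpi was lost without FAP replicate 1, at 0.40, and without ASC replicate 2, at 1.004 with an adjusted p of 0.0530 by limma. Cenpe was not called without ASC replicate 3, FAP replicate 1 or any of the injured FAP libraries, with adjusted p of 0.0775, 0.180 and 0.0518 to 0.0561. Cenpo was not called without ASC replicate 3 or FAP replicate 1, with adjusted p of 0.0546 and 0.126. With quantile normalization Cenpl, Cenpa and Cenpo were not called, at −0.55, −0.93 and −0.12 with adjusted p of 0.0666, 0.0998 and 0.645 by limma. In that setting Cenpb was called lower, at −0.83, and Cenpn, Cenpq and Cenpv higher, at 0.83, 1.04 and 0.76. The count of called centromere proteins was 3 without ASC replicate 3 and 3 without FAP replicate 1.

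Of the transport kinesins, 5 of 15 were called between the same cells: Kif21a and Kif21b were higher and Kif5c, Kif1a and Kif3c lower in ASCs, with a median log2 fold change of 0.02. Kif21a led the rises as given above, and Kif5c had the largest fall, with a log2 fold change of −1.88 ± 0.53 (adjusted p = 0.0112) by limma. The call of Kif5c was lost without FAP replicate 2, with an adjusted p of 0.0708. Kif1a, at −1.82 ± 0.67 (adjusted p = 0.0374) by limma, was not called without FAP replicate 1, FAP replicate 2, injured FAP replicate 1 or injured FAP replicate 3, with adjusted p of 0.0939, 0.166, 0.0536 and 0.0577. The count of called transport kinesins was 3 without FAP replicate 1 and 3 without FAP replicate 2. Kif21b, with a log2 fold change of 0.91 ± 0.31 (adjusted p = 0.0287) by limma, was called although its values overlapped between the groups. It was not called without FAP replicate 1, at 0.47, or without ASC replicate 3, at 0.63 with an adjusted p of 0.0876 by limma. Of the ciliary and other kinesins Kif2a was higher and Kif26a, Kif6, Kif19a and Kif7 lower in ASCs, 5 of 8 tested, with a median of −1.13. With quantile normalization 3 were higher and 3 lower, since Kif24 at 0.96 and Kif9 at 0.79 joined and Kif19a at −1.01 was not called. The largest difference was that of Kif26a, with a log2 fold change of −5.22 ± 0.54 (adjusted p = 1.95e-05) by limma, and ASC replicates 1 and 3 lay below the worth of 3 reads. The log2 fold changes of the others were 1.56 ± 0.11 (adjusted p = 1.61e-06) for Kif2a, −2.94 ± 0.46 (adjusted p = 3.28e-04) for Kif6 and −1.51 ± 0.41 (adjusted p = 0.00950) for Kif19a by limma. The call of Kif19a was lost without FAP replicate 2, at −1.10.

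Injured FAPs were compared with ASCs to set them against stromal cells of another tissue, without use of the FAP libraries in the difference. In this comparison 50.8% of tested genes were called, 25.0% as higher and 25.8% as lower in injured FAPs. This balance too depends on the scaling, with 3405 genes higher and 3504 lower as deposited, 3984 and 3101 with a common 75th percentile and 3772 and 3228 with edgeR. All 11 mitotic kinesins were higher, with a median log2 fold change of 4.85, beside 0.02 over all tested genes. Kif2c had the largest rise, at 5.88 ± 0.53 (adjusted p = 4.80e-06) by limma, and Kif11 the smallest, at 3.47 ± 0.32 (adjusted p = 6.18e-06). Kif18a was close to Kif11, at 3.49. Over the settings Kif11 ranged from 3.33 to 3.73 and Kif18a from 2.85 to 3.98, so that the smallest rise is not well fixed. Of the centromere proteins 17 of 20 were higher and 0 lower, with a median of 3.94, and Cenpb, Cenpv and Cenpx were not called. Cenph led with a log2 fold change of 5.40 ± 0.52 (adjusted p = 8.37e-06) by limma. Its value in ASC replicate 1 was worth 1 read. The estimate for Cenph ranged from 4.10 to 5.75 over the settings, against 4.75 to 5.36 for Cenpf, so that the lead is not well fixed. Cenpb was called without ASC replicate 1, at 0.58 with an adjusted p of 1.39e-04, and Cenpx without ASC replicate 2, at 0.63, without injured FAP replicate 2 and without injured FAP replicate 3, each at 0.59. Cenpb and Cenpx were also called with a common 75th percentile, at 0.65 and 0.66, and with edgeR, at 0.62 and 0.63. With quantile normalization Cenpb was called at 0.87. Cenpj, at 0.73 ± 0.19 (adjusted p = 0.00591) by limma, was not called without ASC replicate 1, at 0.51, or with quantile normalization, at 0.49. Side by side, Kif20a had log2 fold changes of 4.57 in injured FAPs and 0.01 in ASCs, each against the shared FAP libraries. For Kif14 these were 4.99 and −0.06, and for Cenpf 4.93 and −0.14.

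Of the transport kinesins 2 of 15 were higher and 5 lower in injured FAPs than in ASCs, with a median log2 fold change of 0.15. Kif5c had the largest rise, at 1.84 ± 0.48 (adjusted p = 0.00601), and Kif17 the largest fall, at −2.22 ± 0.49 (adjusted p = 0.00226), by limma. Kif1a was higher at 1.78 ± 0.60 (adjusted p = 0.0235) by limma, and this call was lost without injured FAP replicate 1 and without injured FAP replicate 3, with adjusted p of 0.0672 and 0.0618. Kif5a, Kif13b, Kif13a and Kif21a were lower, with log2 fold changes of −1.51, −1.38, −0.72 and −0.65. Kif21a was under the threshold without ASC replicate 1, at −0.48, and with a common 75th percentile, at −0.54. Of the ciliary and other kinesins Kif26a, Kif24 and Kif26b were higher and Kif19a and Kif2a lower, 5 of 8 tested, with a median of 0.45. Kif26a led the rises at 3.76 ± 0.48 (adjusted p = 5.94e-05) by limma. Its values in ASC replicates 1 and 3 lay below the worth of 3 reads. The estimate for Kif26a ranged from 2.47 to 4.36 over the settings, against 3.06 to 3.78 for Kif24 and 2.03 to 3.86 for Kif26b. Its lead is thus not well fixed. Kif19a had the largest fall, at −0.98 ± 0.37 (adjusted p = 0.0380) by limma, and was not called in 5 of the 8 fits that left out a library, with adjusted p of 0.0817 without ASC replicate 2, 0.129 without ASC replicate 3, 0.0508 without injured FAP replicate 1, 0.129 without injured FAP replicate 2 and 0.0652 without injured FAP replicate 3. The call of Kif19a was also lost without a filter, with a common 75th percentile and with edgeR, at −0.98, −0.87 and −0.97. Kif2a was lower at −0.83 ± 0.10 (adjusted p = 3.31e-05) by limma.

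The partners of these proteins were read from lists of the same pathways, in injured FAPs against FAPs. All 17 tested genes of the outer kinetochore, which binds microtubules, were higher, with a median log2 fold change of 4.89. Ndc80, whose protein grips the microtubule, had 0 and 6.59 in FAPs and 347, 349.5 and 403 in injured FAPs, with a fitted value of 7.06 ± 0.68 (adjusted p = 1.06e-05) by limma that depends on the pseudocount, since 1 FAP library was at 0. Of the 4 genes that deposit Cenpa, 3 were higher and 0 lower. Oip5 led, at 5.04 ± 0.37 (adjusted p = 2.06e-06) by limma, whereas Hjurp, the chaperone of Cenpa, was not called, with 472 and 692 in FAPs and 639, 692 and 655 in injured FAPs. Of 9 spindle checkpoint genes 8 were higher and 0 lower, led by the kinase gene Bub1 at 5.74 ± 0.31 (adjusted p = 4.39e-07) by limma, and Mad2l1bp was not called. All 6 tested genes of the chromosomal passenger complex and shugoshins were higher, led by Birc5 at 5.96 ± 0.53 (adjusted p = 6.12e-06) by limma. All 9 midzone and cytokinesis partners were higher, led by Cep55 at 5.81 ± 0.43 (adjusted p = 2.19e-06) by limma.

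Of the 10 mitotic cyclins and transcription factors 8 were higher, led by Cdk1 at 5.63 ± 0.26 (adjusted p = 2.39e-07) by limma. Foxm1 and Mybl2, which encode factors that act on genes of mitosis, were among them. Foxm1 had 117 and 259.7 in FAPs and 2923, 2782 and 2649.7 in injured FAPs. Mybl2 had 17.1 and 44.2 in FAPs and 825, 781 and 825 in injured FAPs, without overlap for either gene. Lin37 was lower at −0.68 ± 0.19 (adjusted p = 0.0107) by limma, and Lin52 was not called. Of 16 genes of dynein and dynactin, the motor that walks toward the other end of the microtubule, 1 was higher, Actr1b at 0.71 ± 0.11 (adjusted p = 2.85e-04), and 1 lower, Dync1i1 at −1.53 ± 0.49 (adjusted p = 0.0182), by limma. Of 11 tested cargo partners 0 were higher and 4 lower, Klc4 the most, at −1.52 ± 0.16 (adjusted p = 1.86e-05) by limma, beside Mapk8ip3, Mapk8ip1 and Klc2. Over all tested genes 24.9% were called higher and 27.7% lower, so that the share of lower cargo partners, 36.4%, was near that of all genes. Not called were Klc1, Klc3, Kifap3, Kifbp, Trak1, Trak2 and Rabgap1l of the cargo partners, and Dync1h1, Dync1i2, Dync1li1, Dync1li2, Dynll1, Dynll2, Dynlrb1, Dctn1 to Dctn6 and Actr1a of dynein and dynactin. The medians were 0.12 for dynein and dynactin and −0.47 for cargo partners.

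**Figure D4:**
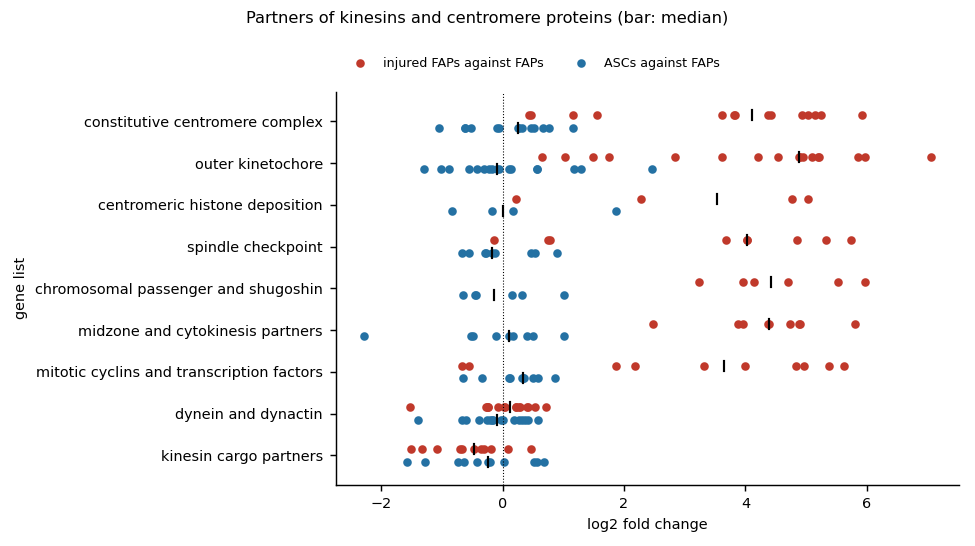
Log2 fold changes (horizontal axis) of the genes of 9 lists (vertical axis), each gene as a point, in injured FAPs against FAPs and in ASCs against FAPs, with a bar at the median of each. In injured FAPs the medians ran from 3.52 to 4.89 in the 7 lists of the centromere, kinetochore and mitosis, and were 0.12 and −0.47 in dynein and dynactin and in kinesin cargo partners.

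In ASCs against FAPs the same lists were read beside the 47.2% of tested genes called. Of 17 outer kinetochore genes 2 were higher and 1 lower, of 9 checkpoint genes 1 was higher and 1 lower, of 6 passenger and shugoshin genes 0 were higher and 1 lower, and of 9 midzone genes 0 were higher and 1 lower. Of 10 cyclins and transcription factors 1 was higher and 1 lower, of 4 deposition genes 1 was higher and 1 lower, and of 14 genes of the constitutive centromere complex 1 was higher and 2 lower. Cit, the gene of citron kinase, was the lower gene of the midzone, with 23.7, 22.7 and 30.1 in ASCs, 111 and 145 in FAPs and a log2 fold change of −2.28 ± 0.21 (adjusted p = 9.11e-06) by limma. The largest differences in the other lists were those of Ndc80 and Ska2 in the outer kinetochore, Ttk and Bub1b in the checkpoint, Incenp in the passenger complex, Lin54 and Lin37 among transcription factors, Oip5 and Hjurp in deposition and Cenpi and Cenpl in the constitutive complex. For Ndc80 the log2 fold change was 2.47 ± 0.68 (adjusted p = 0.00980) by limma. Of 16 dynein and dynactin genes 1 was higher and 3 lower, with Dync1li1 and Dync1i1 at the ends, and of 11 cargo partners 1 was higher and 4 lower, with Trak2 and Klc3 at the ends.

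In injured FAPs against ASCs the counts of higher genes were 16 of 17 for the outer kinetochore, 8 of 9 for the checkpoint, 6 of 6 for passenger and shugoshin genes, 9 of 9 for the midzone, 8 of 10 for cyclins and transcription factors, 4 of 4 for deposition and 13 of 14 for the constitutive complex, with 0 lower in each, beside 25.0% of all tested genes higher and 25.8% lower. The genes not called were Zwint, Mad2l1bp, Lin37, Lin52 and Cenpx. Ska1 led in the outer kinetochore, Bub1 in the checkpoint, Aurkb in the passenger complex, Cep55 in the midzone, Cdk1 among cyclins and Cenph in the constitutive complex. Ska1 was at 0 in ASC replicate 1, so that its place depends on the pseudocount. Of the dynein and dynactin genes 1 was higher, Dynll2 at 0.78 ± 0.10 (adjusted p = 7.83e-05) by limma, and 0 were lower. Of the cargo partners 0 were higher and 5 lower, Trak1 the most, at −0.88 ± 0.14 (adjusted p = 2.50e-04) by limma.

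Related genes that the symbols did not take were also read. Of 7 tested, 3 were higher and 2 lower in injured FAPs against FAPs, beside 24.9% and 27.7% of all tested genes. Kifc1, a kinesin that walks toward the minus end in the spindle, had 20.9 and 35.8 in FAPs and 536, 577 and 538 in injured FAPs, with a log2 fold change of 4.28 ± 0.34 (adjusted p = 3.28e-06) by limma. Kifc5b, a near-identical copy that may share reads with Kifc1, rose too and is uncertain for that reason. Kifc2, a motor of neurons, fell most, with 270.1 and 415 in FAPs and 33.0, 21.7 and 27.5 in injured FAPs and a log2 fold change of −3.58 ± 0.29 (adjusted p = 3.52e-06) by limma. Stard9, a large kinesin of centrosomes, fell at −2.32 ± 0.16 (adjusted p = 1.27e-06) by limma. Itgb3bp, which encodes CENP-R of the constitutive complex, rose at 1.46 ± 0.20 (adjusted p = 1.05e-04) by limma. Cenpc1, the gene of CENP-C, and Kifc3 were not called. In ASCs against FAPs 0 of these 7 were higher and 4 lower, beside 23.4% and 23.8% of all tested genes, and in injured FAPs against ASCs 4 were higher and 2 lower, beside 25.0% and 25.8%.

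Markers of other cell types were set beside these results and beside all tested genes, of which 24.9% were higher and 27.7% lower in injured FAPs and 23.4% higher and 23.8% lower in ASCs, each against FAPs. Of 12 tested leukocyte markers 10 were higher and 0 lower in injured FAPs against FAPs, and 5 were higher and 0 lower in ASCs against FAPs. These counts rest on the values listed at 0 in both FAP libraries for 12 of the 15 markers, and the size of such changes is set by the pseudocount. Whether the FAP libraries were processed unlike the others is not stated in the sources used here and was not tested, and each comparison against FAPs depends on it. Of 13 tested endothelial markers 3 were higher and 6 lower in injured FAPs, and 5 were higher and 7 lower in ASCs. The part of these cells in the fold changes was not tested. In the CD31+CD45+ library each of the 11 mitotic kinesins lay below all 3 injured FAP libraries, with ratios of injured FAPs to CD31+CD45+ cells from 3.70 to 18.3 and a median of 13.1. In the same libraries all 14 endothelial and all 15 leukocyte markers lay below the CD31+CD45+ library in injured FAPs, with median ratios of 0.00572 and 0.0729. Of the centromere proteins 17 of 20 lay above the CD31+CD45+ library in all injured FAP libraries, and of the transport kinesins 6 lay above and 9 below. The shares of all tested genes above and below the CD31+CD45+ library were not counted, so these counts have no background to be read against. With 1 library, in which the endothelial markers summed to far more than the leukocyte markers, this comparison has no test and does not show from which cells the transcripts came.

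**Figure D5:**
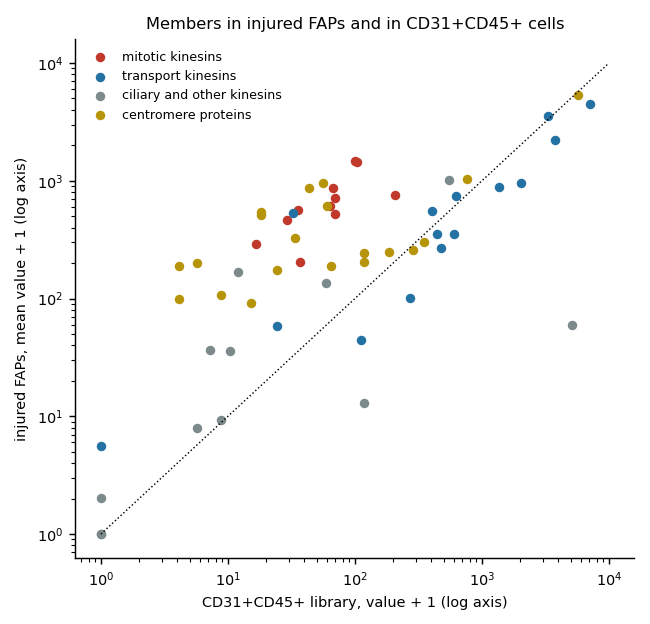
Mean value + 1 of each of the 58 genes in injured FAPs (vertical axis, log scale) against its value + 1 in the CD31+CD45+ library (horizontal axis, log scale), with a dotted line at equal values and colours for the 4 lists. The mitotic kinesins lie above the line with ratios of 3.70 to 18.3, and Kif26a, at 5099 in CD31+CD45+ cells, lies far below it.

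Marker lists of further cell types were read against the same shares of all tested genes, 24.9% higher and 27.7% lower in injured FAPs and 23.4% higher and 23.8% lower in ASCs. The 5 satellite cell markers summed to 779 and 853 in FAPs, 412, 463 and 362 in injured FAPs and 337, 298 and 485 in ASCs, with Des as the most abundant, and 0 of 3 tested were higher and 2 lower in injured FAPs against FAPs. The 5 muscle fibre markers summed to 662 and 814 in FAPs, 238, 231 and 188 in injured FAPs and 149, 106 and 138 in ASCs, with Acta1 or Tnnt3 as the most abundant, and 0 of 4 tested were higher and 3 lower in injured FAPs. The 5 Schwann cell markers summed to 1053 and 1824 in FAPs, 670.1, 398 and 673 in injured FAPs and 1207, 913 and 836 in ASCs, and 0 of 5 were higher and 3 lower in injured FAPs. The part of these cells in the results was not tested. The 8 ASC and FAP markers summed to 1.54e+06 and 1.67e+06 in FAPs and 690305, 749126 and 669560 in injured FAPs. In ASCs they summed to 2.99e+06, 2.75e+06 and 3.16e+06. Col1a1, the most abundant of them in FAPs, had 730860 and 902332 there and 275672 and 292925 in injured FAP replicates 1 and 2. Of the 8 ASC and FAP markers 2 were higher and 4 lower in injured FAPs, and 6 were higher and 0 lower in ASCs, each against FAPs. The higher ones in injured FAPs were Pdpn, at 2.77 ± 0.20 (adjusted p = 2.02e-06), and Ly6a, at 0.81 ± 0.19 (adjusted p = 0.00380), by limma.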

How the data were processed

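RNA of the 9 libraries was read from a table of 26214 genes, 6684 of them at 0 in every library, with 2 empty columns left out. Per the submitters' notes and the paper's methods, the authors used fastq_illumina_filter 0.1, FastQC 0.11.9, HISAT2 2.2.1 with mm10, featureCounts of Subread 2.0.1 and DESeq2 1.34.0. For each gene the table deposited by the authors holds a signal value in every library. Multiplied by a recovered size factor, 100% of them lay within 0.05 of whole reads. The strand setting and the treatment of reads with several matches are not given in the sources used here.

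From the deposited values log2(value + 1) was fitted with limma 3.58.1 in R 4.3.3, with 3 group means over 8 libraries and an intensity trend. The 13601 genes with means of 10 or more were tested, and p-values were adjusted by Benjamini-Hochberg. The CD31+CD45+ library entered no fit. EdgeR 4.0.16 and DESeq2 1.42.0 on the recovered reads called 7303 and 7227 genes in injured FAPs against FAPs, 6450 and 6412 between ASCs and FAPs and 7000 and 6865 between injured FAPs and ASCs. Limma called 7153, 6416 and 6909. The fits were tested on simulated data in which 200 of 13601 genes changed in injured FAPs. Limma recovered 197 of these against FAPs and 199 against ASCs, with 9 and 11 wrong calls. Far fewer genes changed there than were called in the data, so this does not show how the fits behave on the data. Exon lengths came from GENCODE M21 and promoters from RefSeq on GRCm38.p6. A search of protein sequences was planned and not run, because no protein table was used here.

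Members and lists were chosen with earlier results of these data known. Named were all members, with full values for called mitotic kinesins with a mean of at least 100, the 6 most abundant transport kinesins, Cenpa, Cenpb, Cenpe, Cenpf and Cenpj, paralogues side by side, the largest rise and fall of each list and comparison, and from partner lists the counts, the largest called changes and the genes not called, by name or count. Some results are not reported here. Any further gene was picked with its values in view.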

Additional observations from a re-analysis of the deposited data

Results flagged for a closer look

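The CD31+CD45+ library, which entered no fit, gave summed values above both libraries of non-injured FAPs in all 4 lists of members. Its mitotic kinesins summed to 786.3, against 211 and 459 in the FAP libraries, at most 491 in ASCs and at least 7486 in injured FAPs. Its centromere proteins summed to 7811, against 6452 and 6327 in FAPs, and its transport kinesins to 20479, against 16046 and 15349.9. Its ciliary and other kinesins summed to 5865, against 1098 and 1252, of which Kif26a made up 5099. With 1 library these differences have no replicate check and were not tested.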

How the results depend on the processing

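Across 3051 values of single genes under the alternatives, 2940 kept their call, 64 lost it, 47 gained it and 0 reversed, and 76 values that were not called changed sign. The 11 mitotic kinesins were called in both comparisons of injured FAPs under every alternative run. Counts of called genes moved by over 1.5 times as follows. In ASCs against FAPs the mitotic kinesins (1 called) gave 2 with quantile normalization and 1 to 2 with a library left out. The transport kinesins (5) gave 3 with only the compared groups in the fit and 3 to 6 with a library left out. The centromere proteins (5) gave 3 with a pseudocount of 8, 1 with only the compared groups and 3 to 6 with a library left out. For the ciliary and other kinesins a filter at a mean of 50 left 4 genes to test, of which 4, 3 and 3 were called in injured FAPs against FAPs, ASCs against FAPs and injured FAPs against ASCs, where 7, 5 and 5 were called. The mitotic share of the kinesin level was 1.92% in ASCs, 1.95% in FAPs, 32.3% in injured FAPs and 2.90% in CD31+CD45+ cells without division by length, and 4.10%, 4.65%, 53.9% and 7.45% without Kif1c. Among promoters, CHR letters were found in 0 transport kinesins (1) with only windows near the gene start, an alternative chosen after seeing the data. Apart from the smaller filter, the share and the windows, the cause was not tested. Same-numbered libraries correlated in their deviations at −0.0545 to 0.0446. With 2 or 3 libraries per group this cannot show whether the numbers pair libraries. With the replicate block the calls over all genes were 7046, 6287 and 6861, and the centromere proteins called in ASCs against FAPs were 3. Scaling to a common 75th percentile moved the median log2 fold change of all genes from 0.0049 to −0.16 in ASCs against FAPs and from 0.02 to 0.14 in injured FAPs against ASCs, and against that shift the mitotic kinesins were called as before. Fits that leave 1 FAP library assume that it varies like the other groups. Depth limits genes near a value of 2.29 to 4.71, the worth of 3 reads.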
